A study of Mus musculus with 2 samples.

Results

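The PGC-1 coactivators and the factors that transcribe mitochondrial DNA were followed in differentiating 3T3-L1 cells, an established line of mouse fat cell precursors. The members are 10 genes chosen by name: the coactivators Ppargc1a, Ppargc1b and Pprc1, the nuclear respiratory factors Nrf1 and Gabpa, and the mitochondrial factors Tfam, Tfb1m, Tfb2m, Polrmt and Mterf4. They were found as every probe set that the array's annotation gives to 1 of these symbols, which made 21 probe sets of the 10 genes, among 18193 genes with a probe set of their own on the array. All 21 probe sets passed the detection limit on at least 1 array, a signal of 51.3, which is the pooled median of both arrays. In 15 of the 21, both signals reached it.

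The study hybridised 1 Affymetrix mouse expression array with RNA of cells that received a control siRNA (siGL3) and 1 after siRNA to Phf21a, the gene of the histone-reading protein BHC80. Both cultures grew in DMEM containing 25 mM glucose with 10% FBS, received siRNA as preadipocytes, and were induced 24 h later with insulin, dexamethasone and 3-isobutyl-1-methylxanthine. Total RNA was taken after another 24 h, early in differentiation. Each group has 1 array, so values carry no error between replicates and nothing could be tested, and 3T3-L1 is 1 clonal line that stands in for preadipocytes of a tissue.

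PGC-1 alpha, the product of Ppargc1a, binds nuclear receptors and other factors at their target genes and recruits the enzymes that open chromatin, and it is known for driving mitochondrial biogenesis and heat production in brown fat, muscle and liver. NRF-1 and GABP (also called NRF-2) are DNA-binding factors through which the PGC-1 proteins act on nuclear genes of the respiratory chain and on the genes of the mitochondrial transcription machinery. That machinery is small: Polrmt is the RNA polymerase of the organelle, Tfam bends and packages mitochondrial DNA at its promoters, and Tfb2m opens the promoter for the polymerase.

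A promoter window is shown for Ppargc1a because this gene carried the largest log2 ratio of the members. Another is shown for Tfb2m, the member with the lowest. Both are RefSeq windows of build GRCm38.p6 covering the 250 bases before the listed start site, on the minus strand, at chr5:51567726-51567975 for Ppargc1a and chr1:179546277-179546526 for Tfb2m. Capitals in the Ppargc1a window mark a match to TGACG, the core of the cAMP response element, read on the opposite strand, and capitals in the Tfb2m window mark CGGAAG, the core that ETS factors such as GABP bind.
Ppargc1a: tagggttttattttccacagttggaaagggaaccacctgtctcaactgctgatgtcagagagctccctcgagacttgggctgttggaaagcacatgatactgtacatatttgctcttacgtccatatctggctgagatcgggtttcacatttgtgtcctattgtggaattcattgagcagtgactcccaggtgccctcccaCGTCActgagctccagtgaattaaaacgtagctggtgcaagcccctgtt
Tfb2m: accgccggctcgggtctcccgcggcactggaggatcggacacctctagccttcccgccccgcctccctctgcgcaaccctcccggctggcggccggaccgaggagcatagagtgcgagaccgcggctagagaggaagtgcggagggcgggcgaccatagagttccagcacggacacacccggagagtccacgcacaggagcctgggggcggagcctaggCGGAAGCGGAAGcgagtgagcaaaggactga

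The letters were searched on both strands in windows of 300 bases, 250 before and 50 after each start. The search covered 9 members (10 windows, Nrf1 having more than 1). Ppargc1b had no window among those searched, which for the members, but not for the whole table, left out a chromosome. TGACG was present in the windows of Ppargc1a, its first base 49 bases before the start, and of Tfb1m, and in 20.8% of the 32817 promoter windows of the whole table. The full element TGACGTCA, in 1.79% of all windows, was in none of the members' windows. Sequence outside the windows, including any other start site of a gene, was not searched. CGGAAG was present for Mterf4, Tfb2m, Tfam, Polrmt and Gabpa, 5 of the 10 windows, against 16.9% of all windows. GCATGCGC, the core of the NRF-1 site, was present for Tfb2m, 14 bases after the start, and for Polrmt, against 2.71% of all windows. AAGGTCA, the core of the site of estrogen-related receptors, was in no member window and in 4.72% of all. AAGATGGC, the core of the YY1 site, was present for Gabpa alone and in 2.74% of all. The 2 windows of Nrf1 and that of Pprc1 held none of these letters. A match describes the sequence and is not evidence that a factor binds.

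Values are MAS5 signals in arbitrary units on a linear scale, and log2 ratios are Phf21a siRNA over control siRNA. The ± after a log2 ratio is a local spread: among the 1000 detected probe sets closest in mean signal, the 84th percentile of log2 ratios minus the 16th, divided by 2. It describes these 2 arrays, holds any true changes, and is not the error between cultures. Each gene is represented by its brightest detected probe set. The words higher and lower describe the Phf21a siRNA array against the control array, and a gene was counted when it was at least 1.5-fold apart.

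Phf21a itself was lower in the array labelled with its siRNA, 768 against 306 (log2 ratio -1.33 ± 0.52), and its 3 detected probe sets lay between -1.35 and -0.73. Median signals of the arrays were 53.0 for control and 49.5 for Phf21a siRNA. The poly-A control RNAs were higher on the Phf21a siRNA array by a median of 0.73 on the log2 scale and the hybridisation controls by 0.23. Scaling to the poly-A controls therefore moved the median of all detected genes from 0.03 to -0.74, and scaling to the hybridisation controls moved it to -0.21. As deposited, 15.2% of the genes detected were higher and 13.9% lower by 1.5-fold or more, against 2.14% and 61.8% after poly-A scaling and 8.47% and 24.3% after hybridisation scaling. Ratios below are thus relative to the other transcripts of the same array. In total RNA of a culture, fewer cells of a type and less RNA per cell cannot be told apart.

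Among the 10 members 2 were at least 1.5-fold higher, Ppargc1a and Mterf4, and 1 was at least 1.5-fold lower, Tfb2m. That is 20% and 10% of the members, beside 15.2% higher and 13.9% lower among all 11301 detected genes, so the counts lie near the background. The median log2 ratio of the members was 0.004, against 0.03 for all detected genes, and 5 members were above 0 and 5 below. Without Ppargc1a the median of the other 9 was -0.02 and their mean -0.04. At least 2-fold, only Ppargc1a was counted, where the background was 5.72% higher and 5.47% lower. Dim genes passed 1.5-fold more often. Among the detected genes with a signal of at least 461 on either array 12.9% were higher and 10.1% lower, and among the dimmer ones, where Ppargc1a lies, 19.0% were higher and 20.5% lower.

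**Figure D1:**
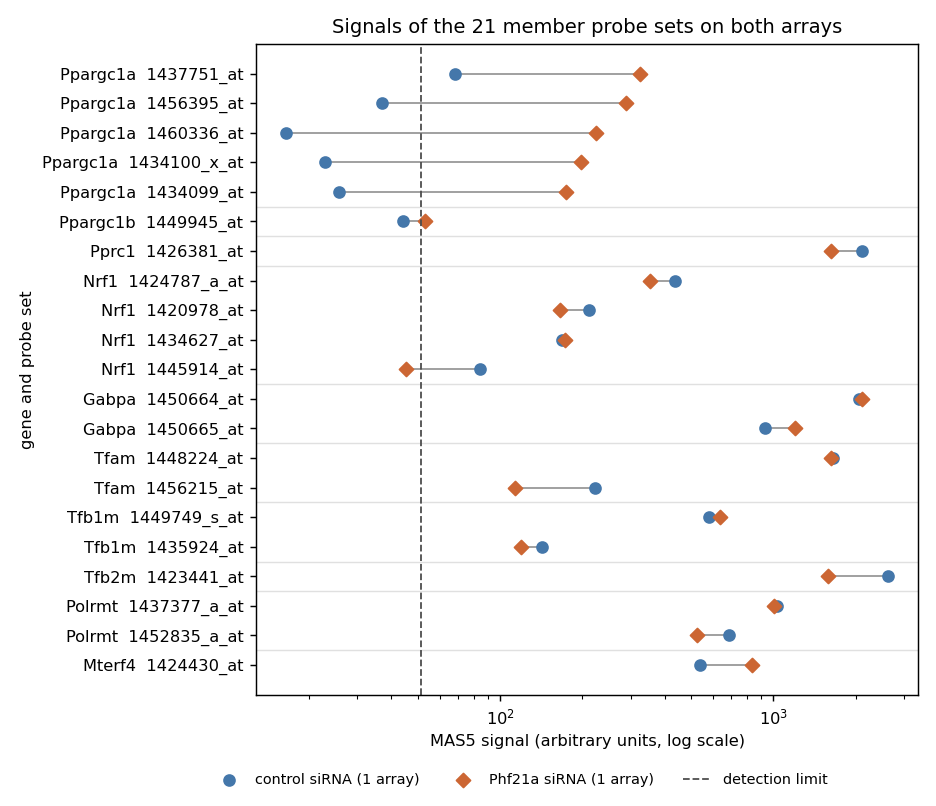
MAS5 signal (log axis, arbitrary units) of each of the 21 member probe sets with control siRNA (circles) and Phf21a siRNA (diamonds), with the detection limit of 51.3 dashed. All 5 probe sets of Ppargc1a lie to the right on the Phf21a siRNA array, 4 of them from a control signal under the limit, while the pairs of Gabpa 1450664_at, Tfam 1448224_at and Polrmt 1437377_a_at nearly coincide.

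Ppargc1a (Entrez gene 19017) was higher on each of its 5 probe sets. The brightest, 1437751_at, read 68.6 with control siRNA and 324 with Phf21a siRNA (log2 ratio 2.24 ± 0.62), a 4.73-fold difference. Probe set 1456395_at read 36.9 and 288, and 1460336_at read 16.5 and 225. Probe sets 1434099_at and 1434100_x_at, which were designed from the same sequence record, read 25.8 and 174, and 22.8 and 198.
Apart from 1437751_at, these probe sets reached the detection limit only on the Phf21a siRNA array, so their direction was fixed by the limit.

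The control signal reached the detection limit only on 1437751_at, and the other 4 ratios (2.76 to 3.77) rest on control signals that MAS5 measures poorly. With every signal raised to the limit, the 5 probe sets still differed by 3.39-fold to 5.62-fold. They measure 1 gene in the same 2 RNA samples and are not separate observations. Of the 11301 detected genes 42 had a higher log2 ratio than Ppargc1a. The ratio was 1.51 after poly-A scaling and 2.01 after hybridisation scaling, so it kept its direction under both.

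The other coactivators of the family had ratios within their local spread as deposited, but both moved with the scaling. Ppargc1b (Entrez gene 170826), which encodes PGC-1 beta, read 44.2 and 53.0 on its only probe set, around the detection limit on both arrays (0.26 ± 0.82). It was at -0.47 after poly-A scaling and at 0.63 after loess, where it passed 1.5-fold. Pprc1 (Entrez gene 226169), the serum-inducible relative that binds NRF-1, read 2104 and 1625 (-0.37 ± 0.46). It was at -0.60 after hybridisation scaling and -1.11 after poly-A scaling, both lower by more than 1.5-fold. Signals of different probe sets cannot be ranked against each other on these arrays, so the 3 coactivators are compared by ratio and not by level.

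**Figure D2:**
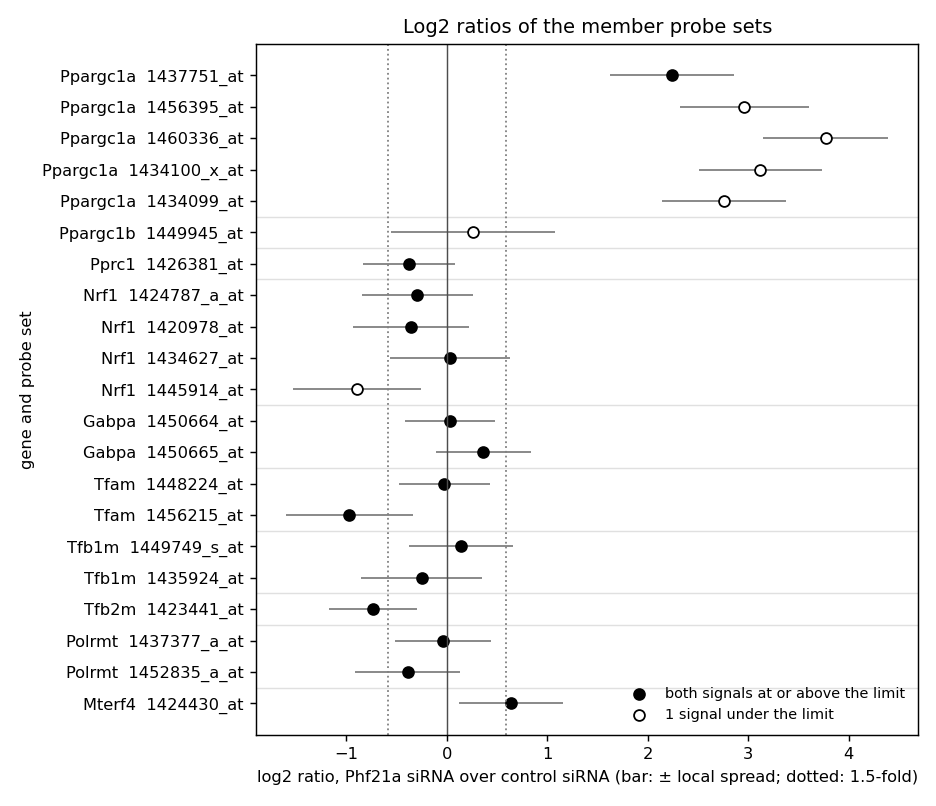
Log2 ratio of each member probe set (Phf21a siRNA over control siRNA), with bars of ± 1 local spread, dotted lines at 1.5-fold, and open circles where 1 of the signals was under the detection limit. The probe sets of Ppargc1a lie between 2.24 and 3.77, and every other member lies between -0.97 and 0.64.

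Nrf1 (Entrez gene 18181), the factor whose sites sit in many respiratory gene promoters, was read by 4 probe sets that did not point one way. The brightest, 1424787_a_at, read 435 and 354 (-0.29 ± 0.55). Probe set 1420978_at read 212 and 165 (-0.35), and 1434627_at read 169 and 172 (0.03). The dimmest, 1445914_at, read 84.2 and 45.3 (-0.89 ± 0.64), the latter under the detection limit. Its ratio was -0.72 with that signal raised to the limit, so the 1 probe set past 1.5-fold was also the least certain.

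Gabpa (Entrez gene 14390), the DNA-binding subunit of GABP, read 2061 and 2106 on 1450664_at (0.03 ± 0.45) and 931 and 1199 on 1450665_at (0.36 ± 0.48). Both probe sets were within their local spread, and after poly-A scaling the gene was at -0.70. Its partner subunit Gabpb1, which carries the activation domain, was at -0.38 ± 0.52 (699 and 539).

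Tfam (Entrez gene 21780), the packaging factor of mitochondrial DNA and a classical target of NRF-1, differed between its probe sets. The brighter, 1448224_at, read 1650 and 1624 (-0.02 ± 0.45). The dimmer, 1456215_at, read 223 and 114 (-0.97 ± 0.63). The bright probe set thus shows nearly equal signals while the dim one is 1.96-fold lower, and the mean over both was -0.50.

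The paralogous methyltransferase-like factors differed in ratio. Tfb2m (Entrez gene 15278), the initiation factor that melts mitochondrial promoters, read 2633 and 1581 on its only probe set, 1.67-fold lower (-0.74 ± 0.44). Tfb1m (Entrez gene 224481), which methylates the small ribosomal RNA of the organelle, read 580 and 639 on 1449749_s_at (0.14 ± 0.52) and 142 and 119 on 1435924_at (-0.25 ± 0.60). After poly-A scaling Tfb1m was at -0.59. The ratio of Tfb2m lies outside its local spread and those of Tfb1m lie inside theirs, but the difference between the genes could not be tested. Of the 11301 detected genes 1111 had a lower log2 ratio than Tfb2m. It was at -1.47 after poly-A scaling and -0.96 after hybridisation scaling.

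Polrmt (Entrez gene 216151) read 1030 and 1001 on 1437377_a_at (-0.04 ± 0.48) and 686 and 524 on 1452835_a_at (-0.39 ± 0.52), both within the local spread. Mterf4 (Entrez gene 69821), a member of the mitochondrial terminator family that acts in ribosome assembly, read 539 and 838 on its only probe set, 1.55-fold higher (0.64 ± 0.52). Its ratio was 0.41 after hybridisation scaling and -0.096 after poly-A scaling, where its direction turned. Of the detected genes 1521 had a higher log2 ratio than Mterf4. Nsun4, the RNA methyltransferase that forms a complex with Mterf4, read 394 and 597 (0.60 ± 0.52), and its 3 probe sets lay between 0.30 and 0.60; it was at -0.13 after poly-A scaling.

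**Figure D3:**
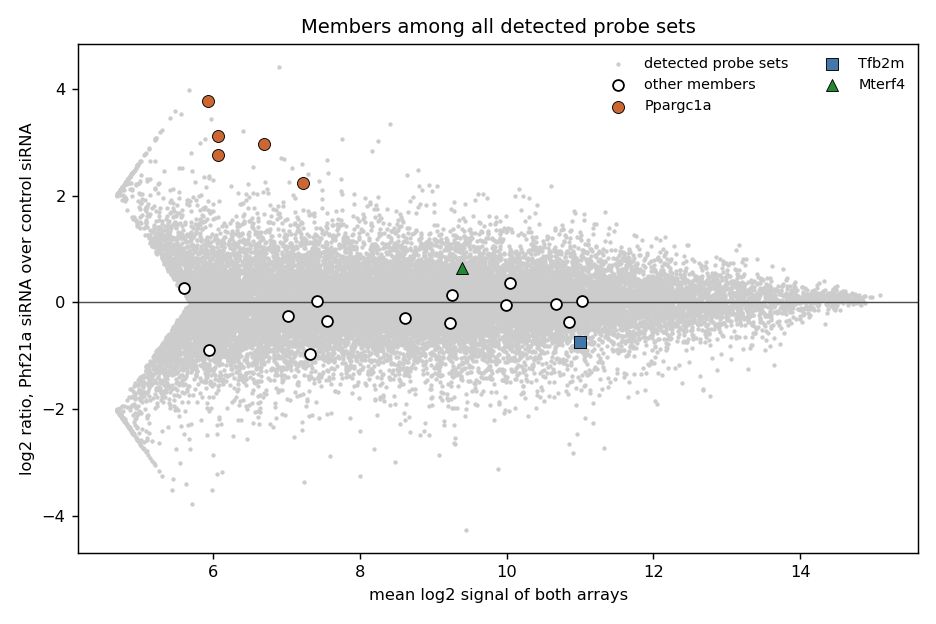
Log2 ratio (Phf21a siRNA over control siRNA) against the mean log2 signal of both arrays for all 23901 detected probe sets (grey) and the members (symbols). Ppargc1a lies at the upper edge of the cloud at low signal, where the cloud is widest, and the slanted edges at the left come from the detection limit and the floor on low signals.

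By probe set, 6 of 21 were at least 1.5-fold higher, of which 5 belong to Ppargc1a and 1 to Mterf4, beside 14.2% of all detected probe sets. Another 3 were at least 1.5-fold lower, 1 each of Tfb2m, Tfam and Nrf1, beside 16.3% of all. In 9 of 21 the ratio was beyond the local spread, 5 of them of Ppargc1a, beside 33.3% of all detected probe sets of 1 gene. Apart from 1437751_at, the Ppargc1a probe sets reached the detection limit only on the Phf21a siRNA array, so the limit fixed their direction. It likewise fixed that of Ppargc1b, detected only with Phf21a siRNA, and of Nrf1 1445914_at, detected only with control siRNA. Of the 16 probe sets of the other 9 genes, 6 were above 0 and 10 below, with a median of -0.15, against -0.0046 for all detected probe sets.

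The partners through which PGC-1 proteins reach their genes were mixed. The 21 detected partners had a median of 0.05, with 3 (14.3%) counted higher and 4 (19%) lower. Among all detected genes these shares were 15.2% and 13.9%. Esrra, an orphan nuclear receptor that PGC-1 alpha coactivates, read 497 and 804 (0.70 ± 0.53) with a second probe set at 0.87. Pparg, the master regulator of fat cell formation, read 512 and 814 (0.67 ± 0.52), and the acetyltransferase Ep300 read 574 and 954 (0.73 ± 0.52). Under poly-A scaling the direction turned for Esrra (-0.037) and Pparg (-0.063), and Ep300 was at 0.0003. Ncoa1, a steroid receptor coactivator that docks on PGC-1 alpha, read 354 and 152 (-1.22 ± 0.57), and its other detected probe set gave -1.31.
Lpin1, a phosphatidate phosphatase that also coactivates with PGC-1 alpha, read 294 and 136 (-1.11 ± 0.57), although its second probe set was at -0.31. The receptor Esrrb was dim, at 91.4 and 53.6 (-0.77 ± 0.61), and its direction turned to 0.12 without the filter on low signals, which brings in another probe set. Nrip1, the corepressor that opposes PGC-1 alpha in fat, was at 0.35 ± 0.52 with 6 probe sets from 0.10 to 1.00. The receptors Esrrg and Ppara were under the detection limit on both arrays.

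Genes that control the expression or the activity of PGC-1 alpha also went both ways, with a median of 0.11 over 34 detected genes. Of the 34, 5 (14.7%) were counted higher and 4 (11.8%) lower, beside 15.2% and 13.9% of all detected genes. Sirt1, the deacetylase that activates PGC-1 alpha, read 441 and 194, 2.28-fold lower on its only probe set (-1.19 ± 0.57). Atf2, a factor that binds the cAMP response element of Ppargc1a, read 2339 and 1023 (-1.19 ± 0.46), but its 4 detected probe sets reached 0.06. Foxo3, a forkhead factor, read 603 and 1358 (1.17 ± 0.49) and its 3 probe sets lay between 0.62 and 1.17. Camk2d, a calcium-dependent kinase, read 841 and 1553 (0.89 ± 0.48), with 5 probe sets from 0.12 to 1.06. Creb1, the factor that mediates cAMP induction of Ppargc1a, read 1360 and 1141 (-0.25 ± 0.49), with probe sets up to 0.20.

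Other targets of CREB and cAMP were also mixed. The 22 detected genes had a median of 0.04, with 2 (9.09%) counted higher and 4 (18.2%) lower. The background shares were 15.2% and 13.9%. The insulin receptor substrate Irs2 read 107 and 198 (0.89 ± 0.61). Pde3b, the phosphodiesterase of the insulin response, read 210 and 65.8 (-1.67 ± 0.62), the immediate early factor Egr1 read 2545 and 1196 (-1.09 ± 0.46), and Rgs2, a brake on G protein signals, read 1559 and 765 (-1.03 ± 0.49). The nuclear receptor Nr4a1, a rapid cAMP target, was at -0.46 ± 0.50.

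**Figure D4:**
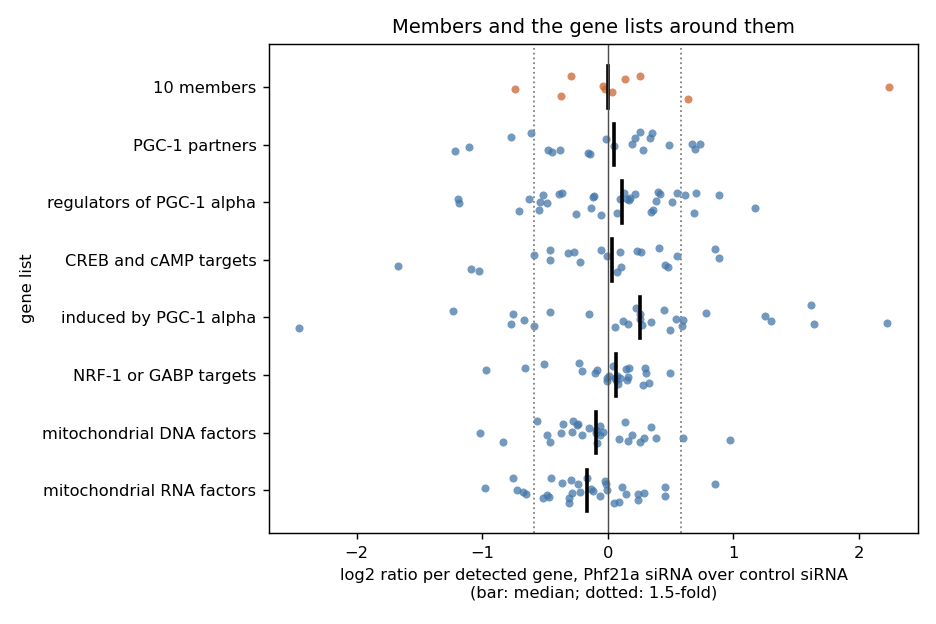
Log2 ratio per detected gene (Phf21a siRNA over control siRNA) for the 10 members and the 7 gene lists around them, with black bars at the medians and dotted lines at 1.5-fold. Medians run from -0.16 for the mitochondrial RNA factors to 0.26 for the genes induced by PGC-1 alpha. The highest point is the member Ppargc1a at 2.24.

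Genes described as induced by PGC-1 alpha in muscle, liver or brown fat had a median of 0.26 over 27 detected genes, against 0.03 for all detected genes. Of the 27, 8 (29.6%) were counted higher and 6 (22.2%) lower, so both counts are above the background of 15.2% and 13.9%. The higher genes were the fatty acid transporter Slc27a1 (91.4 and 286, 1.65 ± 0.62), the mitochondrial deacetylase Sirt3 (137 and 419, 1.62 ± 0.57), the pyruvate dehydrogenase kinase Pdk4 (315 and 778, 2.47-fold) and the lipase Pnpla2 (238 and 568, 2.38-fold), with Acadl, Cat, Acot2 and Cox7a1. The second probe set of Slc27a1 was at 0.71. The lower genes were Slc2a4 (-2.46), Vegfa (-1.23), Sirt5 (-0.77), Errfi1 (-0.75), Fabp3 (-0.66) and Angptl4 (-0.59). Cox7a1 (14.3 and 66.7) and the glucose transporter Slc2a4 (70.8 and 8.99) were each under the detection limit on 1 array. The list was drawn up with results for several of these genes known, so its direction is not independent evidence. After poly-A scaling the median was -0.51, with 2 genes higher and 12 lower, and after hybridisation scaling 0.03, with 5 and 8. The shares of all detected genes were 2.14% and 61.8% after poly-A scaling, and 8.47% and 24.3% after hybridisation scaling.

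Nuclear respiratory genes described as NRF-1 or GABP targets lay close to 0. All 25 with a probe set were detected, the median was 0.07, and 0 were counted higher and 2 (8%) lower. Of all detected genes 15.2% were higher and 13.9% lower. Of those with a signal of at least 461 on either array, 12.9% were higher and 10.1% lower. Cytochrome c (Cycs, 16552 and 17233, 0.06 ± 0.22) and the cytochrome oxidase subunit Cox4i1 (11864 and 12681, 0.10 ± 0.24) differed by less than the local spread. The lower pair were Alas1, which starts haem synthesis (1210 and 618, -0.97 ± 0.51), and the import receptor Tomm70a (4493 and 2846, -0.66 ± 0.41), lower on all 4 of its detected probe sets. The second probe set of Alas1 was at -0.43, under 1.5-fold. Vdac1, the outer membrane channel, was at -0.51 ± 0.34 and Surf1, an assembly factor of cytochrome oxidase, at 0.49 ± 0.47.

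The rest of the machinery that copies and transcribes mitochondrial DNA had a median of -0.09 over 29 genes. Of these, 2 (6.9%) were counted higher and 2 (6.9%) lower, beside 15.2% and 13.9% of all detected genes. Tefm, the elongation factor of Polrmt, was at -0.15 ± 0.53, the DNA polymerase Polg at -0.46 ± 0.52, its helicase Twnk at 0.14 ± 0.52, and the protease Lonp1, which degrades Tfam, at 0.38 ± 0.45. The 3 probe sets of Polg ran from -0.545 to 0.05. Dguok, a kinase that supplies mitochondrial nucleotides, read 1047 and 518 (-1.02 ± 0.53), and the nuclease Exog read 794 and 446 (-0.83 ± 0.52). Dna2, a helicase and nuclease shared with the nucleus, read 255 and 501 (0.98 ± 0.56), with 3 probe sets from 0.34 to 0.98. Nsun4 was the other gene counted higher.

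Factors that process and stabilise mitochondrial RNA were the list with the lowest median, -0.16 over 33 genes. Of the 33, 23 were below 0, beside 5403 of all 11301 detected genes. Counted higher was 1 (3.03%) and lower 5 (15.2%), beside 15.2% and 13.9% of all detected genes. Ptcd3, a protein of the small mitochondrial ribosomal subunit, read 2986 and 1513 (-0.98 ± 0.44), while its other probe set was at 0.27. Prorp, the nuclease that trims transfer RNAs, read 262 and 155 (-0.75 ± 0.56), and Grsf1, an RNA granule protein, read 2129 and 1293 (-0.72 ± 0.45). Rpusd4, a pseudouridine synthase, read 424 and 768 (0.86 ± 0.53). Lrpprc, which stabilises the messenger RNAs of the organelle, was at -0.02 ± 0.45. The 1 transcript of mitochondrial DNA with a probe set of its own, ND5 of complex I, read 7584 and 10833 (0.51 ± 0.29), under 1.5-fold. Its ratio was beyond the local spread as deposited, but 0.29 after hybridisation scaling, within it, and -0.22 after poly-A scaling, where the direction turned.

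Markers of the labelled cell type were present in part. Of 12 fat cell and precursor markers on the array 9 were detected, among them Fabp4 (3502 and 5849), Lpl (3614 and 3253) and Dlk1 (12290 and 5940), while the late markers Adipoq (12.5 and 26.5), Cebpa (45.0 and 12.0) and Cidec were under the limit. Of 9 markers of brown or beige fat cells 0 were detected, with summed signals of 196 and 118. Ucp1, the uncoupling protein of brown fat, read 23.3 and 2.92, Prdm16 39.8 and 19.4, Dio2 45.0 and 36.1, and Cidea 3.12 and 4.48, so these genes were at or near background beside the higher Ppargc1a. Leukocyte markers were detected in 4 of 10 cases with summed signals of 478 and 760, while Ptprc read 6.87 and 12.2 and Tyrobp 4.66 and 6.32. Endothelial markers were detected in 0 of 6 cases (80.6 and 66.2 summed) and skeletal muscle markers in 4 of 8 (373 and 281 summed). Of the 4 detected leukocyte markers 3 were higher: Csf1r, a growth factor receptor (199.7 and 452), Cd68 (64.0 and 119) and Lyz2 (53.6 and 71.9). Most of the rise in the leukocyte sum came from Csf1r. The other detected marker, Laptm5 (66.4 and 22.3), was lower, and Adgre1 (36.2 and 23.5) was under the limit on both arrays. The leukocyte sum was higher on the same array as Ppargc1a, and its part in the result was not tested.

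**Figure D5:**
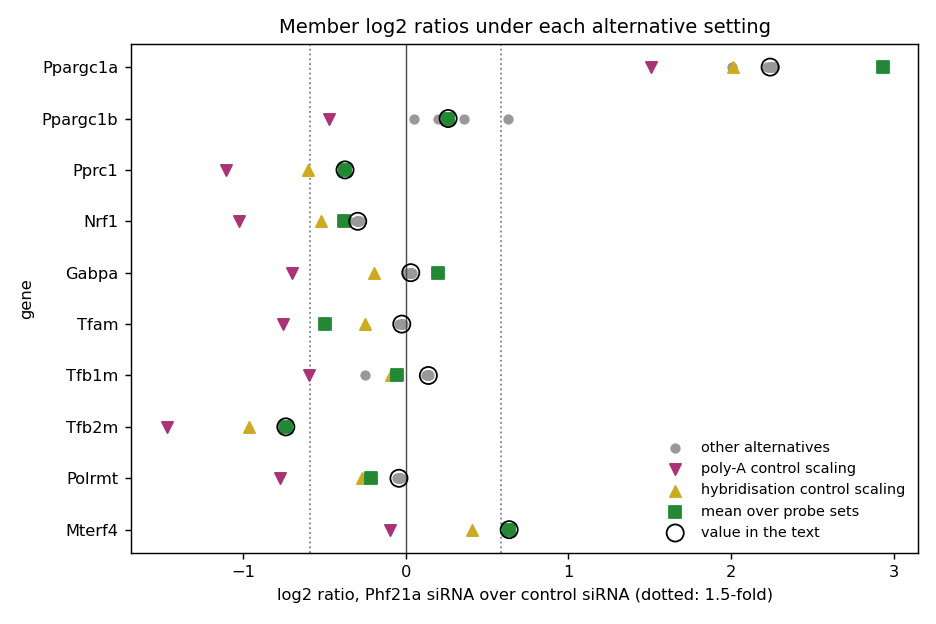
Log2 ratio of each member gene (Phf21a siRNA over control siRNA) as given in the text (open circle) and under each alternative setting (filled symbols), with dotted lines at 1.5-fold. Ppargc1a stays between 1.51 and 2.93 and Tfb2m between -1.47 and -0.73, whereas Mterf4 runs from -0.096 to 0.64.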

How the data were processed

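The authors made the deposited signal intensities with MAS5, per the submitters' processing notes, which name no version. The mean of each array was 500 once 2% of probe sets at either end were trimmed. Groups came from the sample descriptions, and the labels do not say how many cultures an array represents. Gene symbols came from the array's annotation; all 10 members matched a gene table by Entrez number. Of 45101 probe sets 64 controls were left out, and the 932 with several genes and 9160 with none were not named. Signals under 12.9, the 25th percentile of both arrays pooled, were set to it for log2 ratios. Detection needed 1 signal at the pooled median. Of a gene's probe sets those ending in _x_at were left out where another was detected, and the brightest was used. No p-value was computed, since each group has 1 array; their number limits the precision.

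The members and gene lists were chosen with earlier results of these data known. Of 303 list entries 258 matched a symbol on the array and 1 a synonym, and of the 44 others 29 are names of mitochondrial transcripts. The genes named are all members, Phf21a, 8 listed partners and regulators, and in each list up to 4 genes furthest from 0 with both signals detected. Chosen after their values were seen were Cox7a1, Slc2a4, Acadl, Cat, Acot2, Vegfa, Sirt5, Errfi1, Fabp3, Angptl4, Tefm, Polg, Twnk, Lonp1, Lrpprc, Cycs, Cox4i1, Nr4a1 and the marker genes given singly. The alternatives were 5 scalings, 3 treatments of low signals, 2 choices of probe set, 2 filters and 2 other folds. The procedure was tested on simulated data in which changes of at least 2-fold were set in brighter genes only. It therefore did not cover smaller changes or dim genes such as Ppargc1a. The analysis used Python 3.11.15, numpy 2.4.6, pandas 2.3.3, statsmodels 0.14.6 and matplotlib 3.10.9.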

Additional observations from a re-analysis of the deposited data

How the results depend on the processing

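No paired analysis was possible because each group has 1 array. Leaving out an array leaves no comparison. Over 12 alternatives Ppargc1a (1.51 to 2.93), Tfb2m (-1.47 to -0.73) and Phf21a (-2.06 to -1.14) kept their direction and stayed past 1.5-fold. Members at least 1.5-fold higher numbered 1 in place of 2 after poly-A scaling, after hybridisation scaling and at 2-fold, and 3 after loess, which added Ppargc1b. Of all detected genes 2.14% were higher after poly-A scaling, 8.47% after hybridisation scaling, 5.72% at 2-fold and 15.7% after loess. Members at least 1.5-fold lower numbered 7 in place of 1 after poly-A scaling, 2 after hybridisation scaling, 2 with a lower fold for a call, and 0 at 2-fold. Of all detected genes 61.8% were lower after poly-A scaling, 24.3% after hybridisation scaling and 5.47% at 2-fold. Poly-A scaling put Phf21a at -2.06 and turned Mterf4 (-0.096), Nsun4 (-0.13), Esrra (-0.037) and Pparg (-0.063) below 0, since it lowers ratios by 0.73. These 4 were past 1.5-fold as deposited; another 11 of the 61 genes compared changed sign, all under 1.5-fold, and 5 of 7 list medians also changed sign. Hybridisation scaling changed the sign of 5 genes, none past 1.5-fold, and of 4 list medians. Without a filter on low signals Esrrb was at 0.12. Signals near the detection limit bound what can be said of Ppargc1b and of the dim probe sets of Ppargc1a and Nrf1.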

Other observations

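Probe sets of 1 gene did not always give like ratios. In the 6 members with 2 or more detected probe sets, the log2 ratios of a gene spanned 1.53 for Ppargc1a, 0.95 for Tfam, 0.92 for Nrf1, 0.39 for Tfb1m, 0.35 for Polrmt and 0.33 for Gabpa. The median over 5597 genes with 2 or more detected probe sets was 0.44, so 3 members lie above it and 3 below. A span over 0.5 was found in 3 of the 6 members and in 44.9% of all such genes.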
